A study of Mus musculus with 502 samples.

Results

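Immediate early genes are switched on within minutes of a stimulus, without new protein synthesis, by kinase cascades that act on factors already bound to their promoters. The same stimuli also induce genes whose products shut the response down, by removing phosphate from the kinases or by destroying the new mRNAs. In immune cells these genes respond to antigen receptors, cytokines, adhesion and stress, tissue digestion included. The 8 genes described here belong to both classes. Egr1 and Klf6 encode zinc-finger transcription factors, Nr4a1 an orphan nuclear receptor, and Ier2 a nuclear protein of the early response. Dusp1 encodes a phosphatase of MAP kinases, Zfp36 a protein that binds AU-rich elements of inflammatory mRNAs and promotes their decay, Btg2 an antiproliferative protein that recruits deadenylases to mRNAs, and Gadd45b a stress protein that acts on kinase signalling.

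The members were taken from the count table by their symbols, 8 of the 46603 gene rows, and the least widely read of them still had a read in 33.7% of the 502 cells. They were selected on their measured levels across timepoints, pools and cell types in these same cells, so every level and ratio below is a description and none was tested. The cells were Cd45+ leukocytes without propidium iodide staining, index sorted as singlets from whole kidneys of CD1 wild type mice of about 3 weeks of age. Kidneys were harvested without perfusion, so blood leukocytes may be among the cells. They were dissociated at once (fresh) or kept intact at 4 °C in HypoThermosol-FRS, a hypothermic organ preservative, for 6 h or for 1, 2, 3 or 4 days ahead of the same dissociation with Liberase DL at 37 °C. Fresh and preserved cells thus all passed through warm enzymatic digestion. Both kidneys of a mouse were pooled for each timepoint up to day 2, and less kidney tissue of a mouse for the later ones. Libraries were made from single cells with a protocol adapted from SmartSeq2 and carry no molecular identifiers, so counts are reads.

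The labels name no animal. Their titles hold, after the timepoint and well, a code (IM793, IM834 or IM790) whose meaning is not given in the sources used here. It was taken as a library pool, an assumption on which every comparison rests, and divides the cells into pool IM793 (75 fresh cells, 76 from 6 h, 78 from day 2 and 2 from day 4), pool IM834 (81 fresh, 75 from day 1, 82 from day 3 and 19 from day 4) and pool IM790 (14 from day 4). Each timepoint in a pool is therefore 1 sample, and no p-value, standard error or test over cells is given. Fresh cells and day 4 cells are the conditions found in more than 1 pool. The ratio between the fresh groups of pools IM793 and IM834 is given for each of the 8 genes over all cells. The cells held between 1759 and 1895431 counts on genes, with a median of 695188 and 8 cells under 100000. No cell code occurred more than once among the 502, although pools reused some index pairs. Levels per cell are in rpm (reads per 1000000 of the cell's counts on genes), and levels of a group are in CPM (counts summed over its cells, per 1000000 of their summed total). Intervals of shares are exact Clopper-Pearson and those of CPM exact Poisson at the 95% level, and both cover counting error only.

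The leukocyte types in the groups differed. Cells were gated by the counts of 5 genes outside the set: T (Cd3e at least 10), B (Cd79a at least 10), macrophage (C1qb at least 100), neutrophil (S100a8 at least 1000) and monocyte (Csf1r at least 10 and none of the others). The gates hold 21.1%, 14.9%, 24.1%, 7.97% and 15.5% of the cells. Other markers of a type were mostly read more often in its own gate, but several were shared. Cd3d was read in 86.8% of T gate cells and 4% of B gate cells, Cd79b in 100% of B gate cells and 3.77% of T gate cells, C1qa in 98.3% of macrophage gate cells and 6.60% of T gate cells, and Cxcr2 in 80% of neutrophil gate cells and 0.826% of macrophage gate cells. Among the monocyte markers Ccr2 was read in 67.9% of monocyte gate cells and 17.5% of neutrophil gate cells, whereas Ly6c2 was at 735 and 733 CPM in them. Ighm, a B marker, was read in 81.8% of macrophage gate cells and 44.3% of T gate cells, Lyz2 in 82.6% of macrophage gate cells and 70% of neutrophil gate cells, and Cd68 in 91.03% of monocyte and 87.6% of macrophage gate cells. Plac8 was read in 60% of neutrophil and 45.3% of B gate cells, Cd2 in 42.7% of B gate cells and Cd3d in 35% of neutrophil gate cells. T gate cells made up 54.3% of fresh cells in pool IM834 but 9.33% at day 1 and 8.54% at day 3, whereas macrophage gate cells went from 9.88% through 26.7% to 65.9%. In pool IM793 the monocyte gate held 41.3% of fresh cells, 19.7% at 6 h and 6.41% at day 2, and B gate cells were 0, 10.5% and 37.2%. In sums over all cells a different mix of cell types and a different level per cell cannot be told apart, so the main comparisons of the 8 genes are also given within gates.

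The promoters of the members show which response elements they carry, and 6 of the 8 genes matched the RefSeq promoter table (build GRCm38.p6). Egr1 and Ier2 are named only. The 250 bases before each start were searched on both strands for 4 motifs: the cAMP response element TGACGTCA, the serum response element core known as the CArG box, the GC-rich EGR site GCGGGGGCG, and TATAAA. Of 32851 promoters in that table, 1.55%, 1.47%, 2.57% and 12.4% held them. Btg2 and Dusp1 each held the cAMP response element, Zfp36 a CArG box and an EGR site, Nr4a1 an EGR site on the reverse strand, and Gadd45b TATAAA. The Klf6 window held none of the 4 sequences. Each window ends at the base before the start, and capitals mark the motif. The starts are those of RefSeq, and the Nr4a1, Dusp1 and Zfp36 windows lie inside the GENCODE spans of their genes given below. The Btg2 window, chr1:134079156-134079405 on the minus strand, and the Nr4a1 window, chr15:101266596-101266845 on the plus strand, are printed 5′ to 3′ to show in full a window with the cAMP response element sequence and one with the EGR site sequence:
Btg2: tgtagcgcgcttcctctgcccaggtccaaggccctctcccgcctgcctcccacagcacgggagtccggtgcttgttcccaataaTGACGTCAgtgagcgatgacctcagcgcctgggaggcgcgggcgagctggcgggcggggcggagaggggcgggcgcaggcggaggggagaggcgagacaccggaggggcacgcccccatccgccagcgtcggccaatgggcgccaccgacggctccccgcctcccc
Nr4a1: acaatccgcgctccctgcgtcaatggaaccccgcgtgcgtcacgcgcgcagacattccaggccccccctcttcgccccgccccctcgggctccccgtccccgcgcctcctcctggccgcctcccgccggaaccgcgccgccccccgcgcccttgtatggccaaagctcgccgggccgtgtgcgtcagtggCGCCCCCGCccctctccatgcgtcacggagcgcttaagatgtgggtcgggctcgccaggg

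The windows of the other genes overlap annotated exons, and only 30 bases around each motif are shown. These are chr17:26508597-26508626 for Dusp1, chr7:28379315-28379344 for the Zfp36 EGR site and chr7:28379267-28379296 for its CArG box, all on the minus strand, and chr10:80930033-80930062 on the plus strand for Gadd45b. The Zfp36 box begins 58 bases and the Gadd45b TATAAA 46 bases before the start. A match in these letters is a description and not evidence of binding.
Dusp1 cAMP response element: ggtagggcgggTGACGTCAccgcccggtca
Zfp36 EGR site: cgagctacgccGCGGGGGCGcgtcccggaa
Zfp36 CArG box: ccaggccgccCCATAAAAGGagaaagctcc
Gadd45b TATAAA: cccgggaagtcaTATAAAccgctcgcagcg

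The genes themselves lie on different chromosomes. In GENCODE M21 on GRCm38, Ier2 is a single-exon gene at chr8:84661331-84662852 on the minus strand and Btg2 lies at chr1:134075170-134079120 on the minus strand. Gadd45b (chr10:80930073-80932204), Nr4a1 (chr15:101254269-101274795) and Klf6 (chr13:5861482-5870394) are on the plus strand. Counting ignored strand. Exons of Dusp1 (chr17:26505590-26562128, minus strand) overlap the span of Ergic1, and exons of Zfp36 (chr7:28376784-28380253, minus strand) that of Gm44710. Both of these genes are on the opposite strand. Whether their exons are overlapped was not checked, so the values of Dusp1 and Zfp36 may be uncertain to that extent. Levels between genes were compared per kilobase of exon. Over all 502 cells Dusp1 was the highest at 730 CPM per kb, followed by Ier2 (555), Nr4a1 (372), Btg2 (359), then Zfp36, and Egr1 (175.7), Klf6 (151.1) and Gadd45b (148.1). This order pools groups that differ, and it changed between them. In the fresh cells of pool IM793 Nr4a1 (641 CPM per kb) stood above Dusp1 (467), and at day 2 Ier2 (791) did. Nr4a1 and Btg2 lay closer to each other than the fresh groups of the pools did for either gene, and so did Klf6 and Gadd45b.

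Zfp36 was the most widely read member, in 80.3% of all cells (interval 76.5 to 83.7), and Gadd45b the least, in 33.7% (29.5 to 37.99). In every group of more than 5 cells the lowest value of each member was 0 rpm. The medians are lines in the plot of the genes in each cell.

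**Figure D1:**
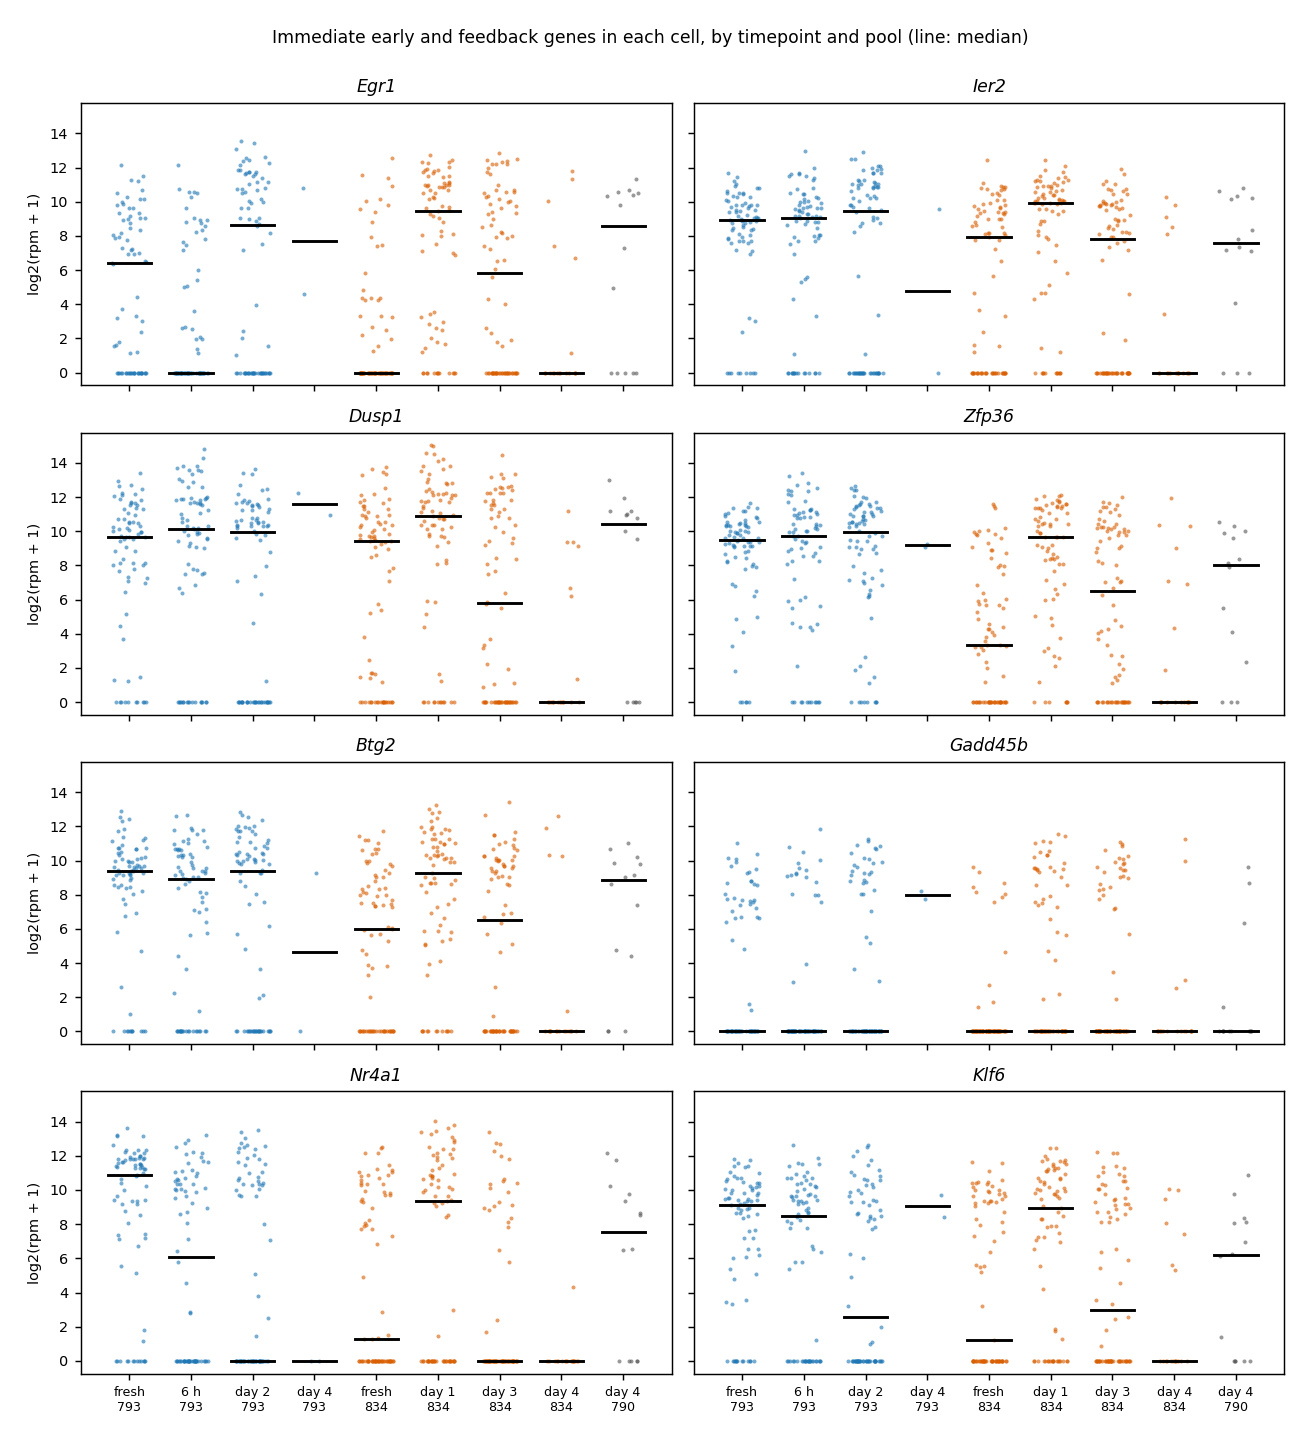
Each panel plots 1 gene as log2(rpm + 1) in each of the 502 cells, by timepoint and pool (blue IM793, orange IM834, grey IM790), with a line at the group median. The day 1 cells of pool IM834 sit highest for 8 of 8 genes in the share of cells above 0 within that pool, and the day 4 cells of pool IM834 have a median of 0 for every gene.

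Day 1 stood apart within pool IM834. All 8 genes had higher CPM at day 1 than in the fresh cells of that pool, by a median log2 ratio of 1.88, and all 8 were past 2-fold. Of 9492 genes whose sums both reached 50 counts, 20.1% were at least 2-fold higher and the median log2 ratio was -0.08. The shares of cells with a read were higher for 8 of 8 members, which 57.8% of all genes showed, and the median rpm of the cells with a read was higher for 8 of 8, which 37% of all genes showed. The fresh cells of pool IM793 were themselves above those of pool IM834 for 7 of 8 members, with a median log2 ratio of 1.04 and 4 of 8 past 2-fold, against 19.1% of 9580 genes. When day 1 was set against the fresh cells of both pools together, the median of the 8 was 1.09. As differences of the mean log2(rpm + 1), which weigh cells without a read more, the medians were 2.68 at day 1 and 2.83 between the fresh groups.

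**Figure D2:**
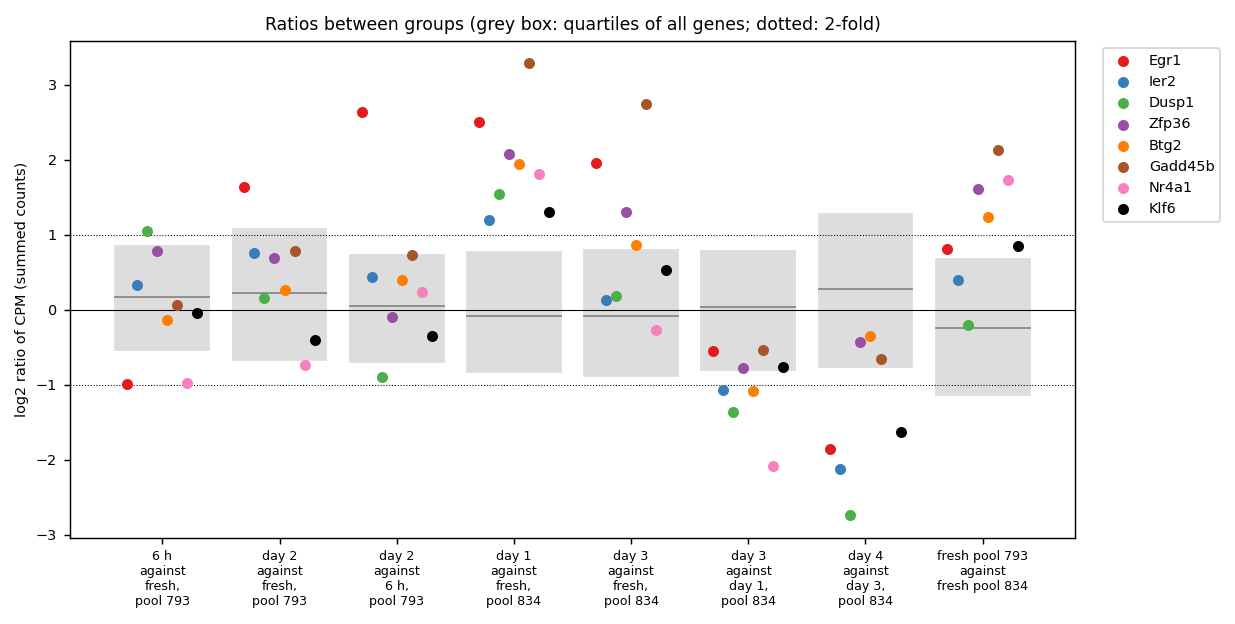
Each point is the log2 ratio of CPM of 1 gene between 2 groups of cells, the grey box spans the quartiles of all genes whose sums both reached 50 counts with a line at their median, and dotted lines mark 2-fold. All 8 points lie above the upper dotted line at day 1 against fresh, all 8 lie below 0 at day 3 against day 1, and the rightmost column is the ratio between the fresh groups. Nr4a1 has no point at day 4 against day 3.

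Egr1, the zinc-finger factor, showed this most widely across cells. In pool IM834 it was read in 35.8% of fresh cells (interval 25.4 to 47.2) and in 82.7% at day 1 (72.2 to 90.4), with a median of 0 and 701 rpm and a highest cell of 5929 and 6807 rpm. At day 3 it was read in 59.8% of cells with a median of 56.6 rpm. The cells with a read differed more than their share, since their median was 27.7 rpm in fresh cells, 1228 rpm at day 1 and 789 rpm at day 3. Summed levels were 263.8 CPM fresh, 1496 CPM at day 1 and 1024 CPM at day 3, log2 ratios of 2.50 and 1.96 against the same fresh cells, beside 0.81 between the fresh groups. In pool IM793 the order differed. Egr1 stood at 461 CPM in fresh cells, 231.8 CPM at 6 h and 1439 CPM at day 2, so it was the lowest of the 8 ratios at 6 h (-0.99) and the highest at day 2 (1.64). The highest Egr1 cell of the series, at 11878 rpm, was a day 2 cell.

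Nr4a1, the orphan nuclear receptor known for its induction by antigen receptors and for its role in patrolling monocytes, followed another course. In pool IM793 it was at its highest in fresh cells, where 82.7% had a read (interval 72.2 to 90.4) with a median of 1899 rpm and a highest cell of 12656 rpm. At 6 h 55.3% had a read with a median of 69.9 rpm, and at day 2 the share was 48.7% and the median 0. The sums were 2250, 1147 and 1356 CPM, log2 ratios of -0.97 and -0.73. In pool IM834 the sums were 678 CPM fresh, 2391 CPM at day 1 and 563 CPM at day 3, and the shares were 50.6%, 60% and 29.3%. The day 1 log2 ratio of 1.82 was close to the 1.73 between the fresh groups. That of day 3 against day 1 was -2.09, the lowest of the 8 there. Nr4a1 was thus the only member below its fresh cells at 6 h, day 2 and day 3, although no ratio at these times passed 2-fold.

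Klf6, the Krüppel-like factor, ended below its fresh level in pool IM793 (772, 746 and 585 CPM in fresh cells, at 6 h and at day 2) while its share went from 82.7% through 67.1% to 53.8%. In pool IM834 it was read in 50.6% of fresh cells, 74.7% at day 1 and 54.9% at day 3, at 430, 1059 and 622 CPM. Ier2 was read in 65.4%, 85.3% and 59.8% of the same cells, with medians of 242.75, 983.96 and 225.5 rpm and sums of 537, 1234 and 587 CPM. Both genes stood within a log2 ratio of 0.53 of the fresh cells at day 3, after 1.30 (Klf6) and 1.20 (Ier2) at day 1. Between the fresh groups the ratios were 0.85 and 0.40. In pool IM793 the sums of Ier2 went the other way from those of Klf6, with 709, 889 and 1203 CPM. Fewer cells had an Ier2 read at each time (88%, 80.3% and 64.1%). The mean log2(rpm + 1) fell for both genes, from 7.89 through 7.30 to 6.56 for Ier2 and from 7.39 through 6.20 to 4.78 for Klf6.

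Dusp1, the MAP kinase phosphatase, had the highest single-cell level of the set, 33301 rpm in a day 1 cell. It was also the member past 2-fold at 6 h, the only 1 of 8 in that direction, where 21.5% of 10346 genes were, and none of the 8 was 2-fold lower, where 15.1% were. Without 1 cell this ratio fell under 2-fold, to 0.88. Its median rpm was 807 in fresh cells of pool IM793, 1126 at 6 h and 983 at day 2, and its sums were 1547, 3217 and 1724 CPM, log2 ratios of 1.06 and 0.16 against the same fresh cells. In pool IM834 the sums were 1786, 5226 and 2038 CPM for fresh, day 1 and day 3. The median over cells went from 695 through 1931 to 54.4 rpm, and 75.3%, 84% and 62.2% of cells had a read. Dusp1 was thus high at 6 h and at day 1 and near its fresh sum at day 2 and day 3, and it was the single member whose sum was lower in the fresh cells of pool IM793 than in those of pool IM834 (-0.21).

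Zfp36, the mRNA decay factor, was read in 93.3%, 85.5% and 89.7% of cells in pool IM793, with medians of 703, 844 and 998 rpm and sums of 854, 1475 and 1382 CPM. Pool IM834 began far lower, with 62.96% of fresh cells, a median of 9.05 rpm and 281 CPM. There 90.7% of day 1 cells had a read, with a median of 810 rpm and 1189 CPM, and 70.7% of day 3 cells, with 89.3 rpm and 691 CPM. The log2 ratio of 2.08 at day 1 stood beside one of 1.61 between the fresh groups. Btg2, the antiproliferative factor, was also highest at day 1 in pool IM834, at 436, 1670 and 790 CPM. In pool IM793 its sum was lowest at 6 h, at 1031, 939 and 1242 CPM, where the sum of Zfp36 was highest. This contrast holds for sums only. The Zfp36 ratio of day 2 against 6 h was -0.09 and ran from -0.16 to 0.048 without any 1 cell. The share of cells with a Btg2 read was lowest at day 2 (85.3%, 73.7% and 67.9%). The Btg2 ratio was 1.94 at day 1 and 1.24 between the fresh groups.

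Gadd45b, the stress protein, had no read in most cells of each group of at least 14 cells and had the largest ratio. In the fresh cells of pool IM834, 12 of 81 had a read (14.8%, interval 7.90 to 24.4), against 46.7% (35.1 to 58.6) at day 1 and 35.4% (25.1 to 46.7) at day 3. Its sums were 43.3, 423 and 290 CPM, log2 ratios of 3.29 and 2.75. The median of cells with a read was 247.8 rpm fresh, 664 rpm at day 1 and 645 rpm at day 3. The fresh cells of pool IM793 held 190 CPM in 45.3% of cells, so the log2 ratio between the fresh groups, 2.13, was also the largest of the 8. At 6 h and day 2 its sums were 198.3 and 328 CPM.

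At day 3 the set stood below day 1. All 8 log2 ratios of day 3 against day 1 were below 0 with a median of -0.93 (-2.60 as a difference of the mean log2(rpm + 1)), and 4 of 8 (Ier2, Dusp1, Btg2 and Nr4a1) were at least 2-fold lower, against 20.8% of 9523 genes. Without 1 cell Ier2 (-0.97) and Btg2 (-0.96) fell under 2-fold. None was 2-fold higher, against 20.3%. The share of cells with a read was lower for 8 of 8, which 70.1% of all genes showed. The median rpm of the cells with a read was lower for 8 of 8 as well, while 64% of all genes had a higher one. Against the fresh cells, which the day 1 ratios also used, Egr1, Zfp36 (1.30) and Gadd45b were past 2-fold at day 3, 3 of 8 against 21.1% of 9325 genes, with a median of the 8 of 0.70. That median was 0.16 against the fresh cells of both pools and 0.18 as a difference of the mean log2(rpm + 1).

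The day 4 cells of pool IM834, only 19, stood below those of day 3. Of these, 8 had no read of any member, and the median number of members read was 1. Nr4a1 was read in 1 of 19 cells (5.26%, interval 0.133 to 26.03), and its 8 counts give no ratio. The other 7 had log2 ratios below 0 against day 3, with a median of -1.64 and 4 at least 2-fold lower (Dusp1 -2.74, Ier2 -2.12, Egr1 -1.86, Klf6 -1.64), against 21.1% of 4977 genes. A single cell held 74.5% of the Dusp1 counts, 72.8% of Zfp36 and 66.5% of Gadd45b in that group. The median was -1.04 when cells were thinned to 100000 counts and -2.70 as a difference of the mean log2(rpm + 1). Without any 1 cell the median ran from -2.17 to -1.42, and the Zfp36 ratio of -0.43 ran from -2.16 to -0.26. The median genes read per cell was 1130 at day 4 and 1672.5 at day 3, and its part in these ratios was not tested. Against the fresh cells, 3 of 7 were at least 2-fold lower and Gadd45b was higher (2.08), where 22.8% and 33.2% of 4952 genes were. By sums 4 of these 7 were above their fresh level, with a median of 0.10 beside 0.25 for all genes. Nr4a1, which gave no ratio, was at 0.963 CPM against 678 CPM in fresh cells. As mean log2(rpm + 1), Zfp36 (3.25 against 4.01 fresh) and Btg2 (2.44 against 5.11) were below fresh cells. Egr1 (2.55 against 2.24) and Gadd45b (1.41 against 0.97) were above them on that scale. A single cell held 61.1% of the Btg2 and 44.98% of the Egr1 counts at day 4. In the 14 day 4 cells of pool IM790, which have no fresh cells beside them, the members stood between 78.8 CPM (Gadd45b) and 1589 CPM (Dusp1), and Nr4a1 was read in 9 of them at 901 CPM.

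The number of members read in a cell sums up these shares. Over all 502 cells the median was 5 of 8, with 24 cells at 0 and 63 at 8. It was 7 in the fresh cells of pool IM793, 5.5 at 6 h and 5 at day 2, and 4 in the fresh cells of pool IM834, followed by 7, 5 and 1 on days 1, 3 and 4. When each cell was thinned to 100000 counts these medians were 6, 5, 5, 4, 6.5, 4 and 0. All 8 members were read in 24% of day 1 cells and in 6.17% of the fresh cells of that pool, but in 22.7% of the fresh cells of pool IM793 and 2.63% at 6 h. In pool IM793, 8 of 8 members were read in a lower share of cells at 6 h and at day 2 than in fresh cells, as were 75.3% and 82.5% of all genes, and the median genes per cell was 2649, 2136 and 1731. The median rpm of the cells with a read was higher for 5 of 8 and 6 of 8, as for 75.9% and 82% of all genes. These shares are near those of all genes and say nothing particular about the members. Across the whole pool, Egr1 was the 1 of 8 at least 2-fold higher at day 2 against fresh cells, where 27.1% of 9864 genes were, and again at day 2 against 6 h (2.63), where 19.2% of 10139 were. None was 2-fold lower in either, where 18.4% and 18.2% of genes were.

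**Figure D3:**
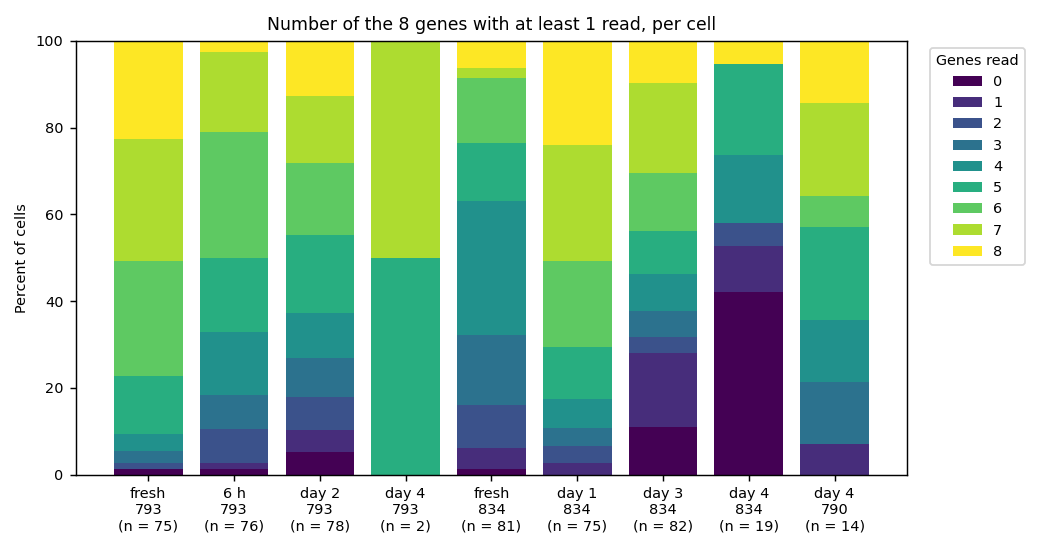
Bars give the percent of cells in each group by how many of the 8 genes had at least 1 read, from 0 (dark) to 8 (yellow). The fresh cells of pool IM793 and the day 1 cells of pool IM834 each have a median of 7 genes, and 42.1% of the 19 day 4 cells of pool IM834 have none.

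Cell types differed in which members they carried, over all groups together. Nr4a1 was read in 85.9% of monocyte gate cells with a median of 2158 rpm and in 23.1% of macrophage gate cells with a median of 0. Klf6 was read in 88.5% of monocyte gate cells and 38.7% of B gate cells. Zfp36 was read in 40 of 40 neutrophil gate cells and 97.3% of B gate cells but in 62.3% of T gate cells, where its median was 11.8 rpm. Dusp1 was highest in neutrophil gate cells, at 7784 CPM with a median of 3540 rpm, and lowest in B gate cells, at 1297 CPM. Egr1 was at 1263 CPM in B gate cells, 1231 CPM in macrophage gate cells and 316 CPM in T gate cells. Since timepoints fill the gates unequally, these levels mix type and time.

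**Figure D4:**
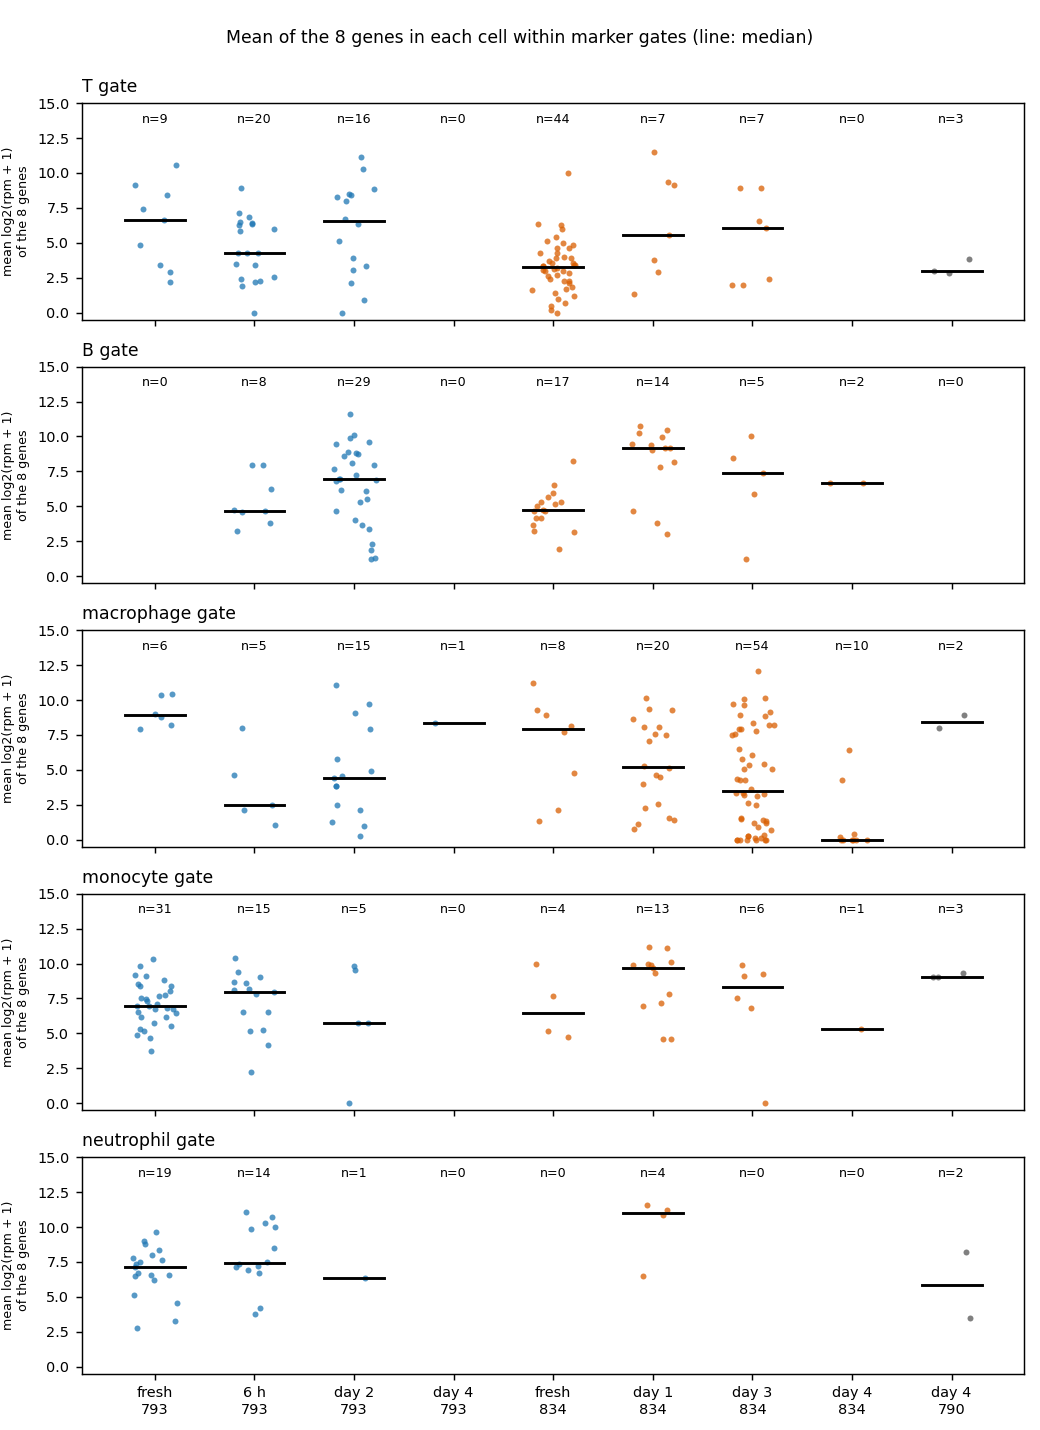
Each point is 1 cell, placed by the mean of log2(rpm + 1) over the 8 genes, in panels for the 5 gates and columns for timepoint and pool, with lines at medians and the number of cells above. In pool IM834 the B gate median is higher at day 1 than in fresh cells, while the macrophage gate median goes down from fresh cells through day 1 and day 3 to day 4.

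Within gates the lymphocytes and macrophages are given in turn. In the T gate of pool IM834, with 7 cells at day 1 and 44 fresh cells, 8 of 8 members were at least 2-fold higher with a median of 2.95, where 37% of 3620 genes were and the median of all genes was 0.47. Egr1 stood at 50.1 CPM in fresh T gate cells and 596 CPM at day 1, and Gadd45b was read in 3 of 44 fresh cells at 29.02 CPM and in 4 of 7 at 356 CPM. The 7 cells had a median of 7 members, from 1 to 8, so not every one was high. Without any 1 cell the median of the 8 ran from 1.85 to 3.23, and Klf6 (1.34) fell under 2-fold without 1 cell, to 0.75. The fresh T gate cells of pool IM793, only 9, were themselves above the 44 of pool IM834 by a median of 1.82, with 5 of 8 past 2-fold against 28% of 5687 genes, although Zfp36 (1.20) fell to 0.68 without 1 cell. Against the fresh T gate cells of both pools the day 1 median was 1.94. Summed T markers per cell ranged from 1898 to 7288 rpm at day 1 and from 1215 to 10697 rpm in fresh cells with 0 of 5 at 0 in both, and monocyte markers reached 11817 rpm in a day 1 cell and 6413 rpm in a fresh cell. Of the marker medians, that of NK and innate lymphoid cells moved most, from 148.6 rpm in fresh cells to 902 rpm at day 1 and 2459 rpm at day 3, and 1 fresh cell held 13476 rpm of macrophage markers. Their part in the ratios was not tested.

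B gate cells showed the same direction in more cells. With 14 cells at day 1 and 17 fresh cells, 7 of 8 members were at least 2-fold higher, against 25.2% of 4259 genes, and the median was 2.22. Egr1 was read in 5 of 17 fresh cells with a median of 0 rpm and a highest of 1921 rpm, and in 13 of 14 at day 1 with a median of 1845 rpm and a highest of 6807 rpm, a log2 ratio of 4.09. A single fresh cell held 98.4% of the fresh Egr1 counts. Zfp36 was read in 17 of 17 fresh cells, at a median of 113.6 rpm and a highest of 928 rpm, and in 13 of 14 at day 1, at a median of 1559 rpm and a highest of 4319 rpm, so that level and not share set them apart. Nr4a1 had a similar share in both (12 of 17 and 9 of 14), while its sum was 1152 and 4880 CPM. Dusp1 (0.81) was the member under 2-fold. No ratio lost its direction without any 1 cell, and the median genes per cell was 1836 fresh and 1773 at day 1. T markers summed to a median of 0 rpm and a highest of 2182 rpm in the fresh cells, with 3 of 5 at 0, and to 456 and 2291 rpm at day 1, with 2 of 5 at 0, and their part was not tested. Pool IM793 had no fresh B gate cell, so no spread between fresh B gates can be given. At day 3, with 5 B gate cells, 5 of 8 members were 2-fold above fresh cells against 37.4% of 2814 genes. Of these, Ier2 (1.73) fell to 0.94 and Btg2 (1.06) to 0.70 without 1 cell. B markers summed to 891 to 26683 rpm per cell in these 5, against 6629 to 27339 rpm in the fresh cells. T markers had a median of 1158 rpm in the 5 cells, with a single cell at 4495 rpm of NK and innate lymphoid markers. The part of these markers was not tested. Set against day 1, 4 of 8 were 2-fold lower and none higher, against 18.2% and 39.2% of 2638 genes, and without 1 cell Dusp1 (-1.46) and Nr4a1 (-1.15) fell under 2-fold, to -0.93 and -0.63. In pool IM793 Egr1 was read in 3 of 8 B gate cells at 6 h and in 22 of 29 at day 2, at 59.5 and 1777 CPM, and 3 of 8 members were 2-fold higher and none lower at day 2, against 16.4% and 31.8% of 4298 genes. Monocyte markers in these cells had a median of 901 rpm at 6 h and 0 at day 2, and B markers 28785 and 18527 rpm, and their part was not tested.

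In the macrophage gate of pool IM834 most members were below their fresh level, 6 of 8 at day 1 and 7 of 8 at day 3. Its 8 fresh cells held the highest median Dusp1 among fresh T, B, macrophage, neutrophil and monocyte gates of at least 5 cells, from 1394 to 13935 rpm with a median of 7232 rpm, and all 8 had a read. At day 1 the median of 20 cells was 893 rpm and 13 had a read, and at day 3 the median of 54 cells was 69.4 rpm and 33 had a read. The sums were 7616, 2955 and 1887 CPM, log2 ratios of -1.37 and -2.01. Zfp36 followed with medians of 1133, 306 and 19.5 rpm and ratios of -1.19 and -1.56. At day 1, 3 of 8 were at least 2-fold lower (Dusp1, Zfp36, Nr4a1) and 1 higher (Gadd45b, 1.17), against 32.1% and 16.3% of 4454 genes. These counts are near those of all genes, whose median was -0.36 beside -0.69 for the 8, and Egr1 (0.08) was slightly above its fresh level. Without 1 cell Zfp36 (-0.92) and Gadd45b (0.56) fell under 2-fold. At day 3, 5 of 8 were lower and 1 higher (Gadd45b, 1.86), against 33.5% and 14.4% of 4841 genes, with a median of -1.31 where that of all genes was -0.38. Btg2 (-1.06) fell to -0.43 without 1 cell. The Nr4a1 ratios of -2.94 and -2.63 rest on 1 fresh cell with 82.5% of the counts and reached -0.71 and -0.39 without it. Gadd45b was read in 2 of the 8 fresh cells, 1 of which held 98.8% of its counts, and its day 1 ratio was -0.020 against the fresh macrophage gate cells of both pools. Between the fresh macrophage gates, 6 cells of pool IM793 against the 8 of pool IM834, Dusp1 was -1.71 and Gadd45b 1.80, and the median of the 8 was -0.22. That median turned direction as a difference of the mean log2(rpm + 1), at 2.29, and ran from -0.54 to 0.12 without any 1 cell. The medians at day 1 and day 3 were -1.25 and -2.62 on that scale. Macrophage markers in pool IM834 summed to a median of 23401 rpm in fresh cells, 14426 rpm at day 1 and 18191 rpm at day 3. The lowest cells held 14894, 3868 and 2647 rpm of them, and their part in the ratios was not tested.

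In the macrophage gate of pool IM834 at day 4 few reads of the members were left. The median of its 10 cells was 0 members read although 1 cell had all 8, Ier2, Gadd45b and Nr4a1 were each read in 1 cell, and Egr1 in 2. The ratios that could be formed against fresh cells were -4.36 for Dusp1, -3.85 for Btg2, -2.25 for Klf6 and -1.54 for Zfp36, 4 of 4 at least 2-fold lower against 20.4% of 2510 genes. A single cell held 99.7% of the Zfp36 and 99.8% of the Btg2 counts. Against day 3, 3 of 4 were 2-fold lower, where 15.4% of 3379 genes were. Macrophage markers remained, with 0 of 5 at 0 and 4867 to 57400 rpm summed per cell, against 14894 to 32544 rpm in fresh cells. The median genes per cell was 2221 fresh, 2041 at day 1, 1693.5 at day 3 and 1134 at day 4, and 23 of 54 cells at day 3 and 9 of 10 at day 4 had fewer than 1500. Their part in the ratios was not tested. In pool IM793 the 6 fresh macrophage gate cells had 7 or 8 members each, the 5 at 6 h had 1 to 6 and the 15 at day 2 had 1 to 8 with a median of 4. Their median ratios were -1.18 and -0.38, where those of all genes were 0.36 and -0.07, with 4 of 6 and 3 of 8 at least 2-fold lower against 17.4% of 3484 and 25.1% of 4943 genes, and none higher against 31.7% and 21.5%. On the mean log2(rpm + 1) scale the medians were -5.18 and -4.24, and without any 1 cell they ran from -2.87 to -0.78 and from -1.02 to -0.15. The median genes per cell was 3917.5 in these fresh cells, 2392 at 6 h and 1983 at day 2, and its part was not tested. Without 1 cell Dusp1 (-1.34) and Zfp36 (-1.02) fell under 2-fold at 6 h, to -0.90 and -0.67, and Klf6 (-1.02) did at day 2, to -0.72. Gadd45b and Nr4a1 were read in none of the 5 cells at 6 h.

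**Figure D5:**
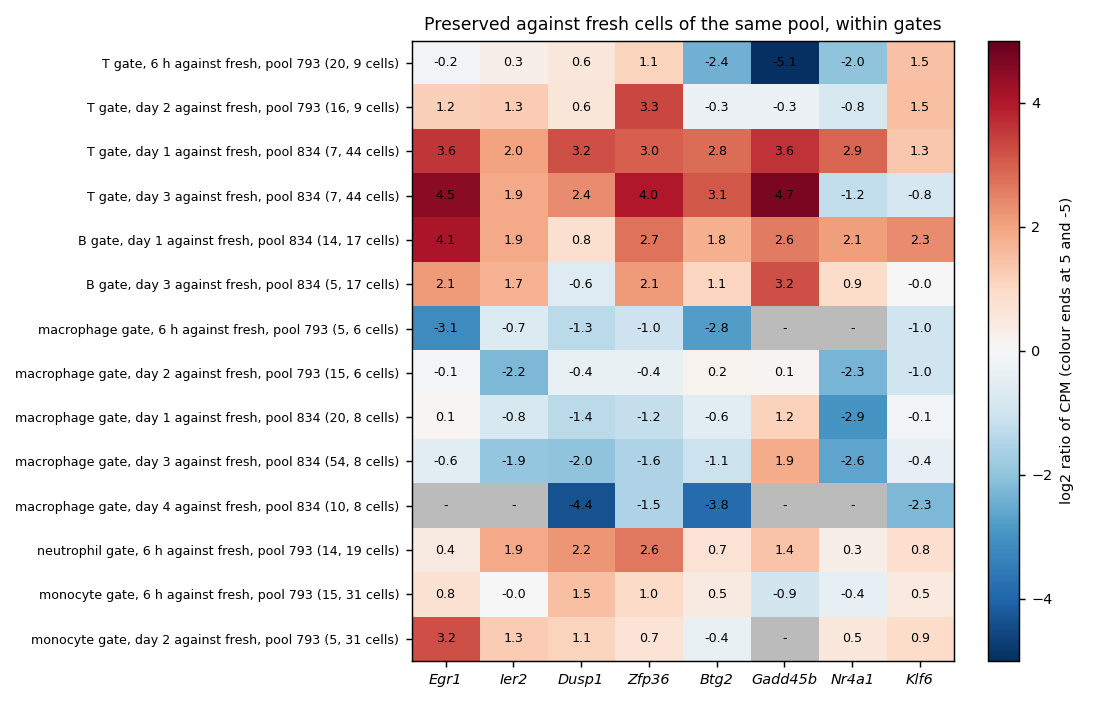
Rows are preserved groups against the fresh cells of their pool within a gate, with the numbers of cells, columns are the 8 genes, and each field gives the log2 ratio of CPM (red higher, blue lower in preserved cells, grey with a dash where a sum was under 50 counts). T and B gate rows of pool IM834 at day 1 are red for 8 of 8 genes, while macrophage gate rows of that pool are blue for 6 of 8 genes at day 1 and 7 of 8 at day 3, and Gadd45b is red in both.

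Neutrophil and monocyte gates could be compared at 6 h. The 14 neutrophil gate cells at 6 h were at least 2-fold above the 19 fresh ones for 4 of 8 members, against 25.6% of 3841 genes, with a median of 1.13. Dusp1 had a median of 1003 rpm and a highest of 10846 rpm in fresh cells, and a median of 11975 rpm and a highest of 28551 rpm at 6 h. Zfp36 was read in all cells of both groups, from 8.61 to 3178 rpm in fresh cells and from 645 to 10728 rpm at 6 h, with medians of 654 and 3509 rpm and a log2 ratio of 2.64. The other ratios ran from Ier2 (1.91) through Gadd45b (1.43), Klf6 (0.83), Btg2 (0.73) and Egr1 (0.44) to Nr4a1 (0.29), and Gadd45b fell to 0.64 without 1 cell. Neutrophil markers summed to 1554 to 52946 rpm per fresh cell and 18684 to 60016 rpm at 6 h, with 0 of 5 at 0, and the part of this difference was not tested. In the monocyte gate, 15 cells at 6 h against 31 fresh, Dusp1 alone was at least 2-fold higher (1.52), 1 of 8 against 22.7% of 6506 genes, and Nr4a1 stood at 2144 and 2845 CPM. Neutrophil markers in these cells had a median of 2.35 rpm fresh and 225.8 rpm at 6 h. Nr4a1 was read in 29 of 31 fresh monocyte gate cells, at a median of 2946 rpm and a highest of 9397 rpm. With 5 cells at day 2, 3 of 7 members were 2-fold above the fresh monocyte gate, where 43.5% of 2914 genes were, and without 1 cell Ier2 (1.26) and Dusp1 (1.12) fell to 0.39 and -0.36. Macrophage markers went from a median of 1038 rpm in fresh cells to 6385 rpm in these 5, and monocyte markers from 17038 to 8553 rpm. The part of these markers at either time was not tested.

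T gate cells in pool IM793 and at day 3 rest on few cells. At 6 h (20 against 9 cells) 2 of 8 were at least 2-fold higher and 3 lower, against 21.6% and 24.3% of 5392 genes. Gadd45b was read in 1 of 20 cells and in 5 of 9 fresh ones, a log2 ratio of -5.14. Zfp36 (1.12) fell to 0.82 without 1 cell. NK and innate lymphoid markers had a median of 1440 rpm in the fresh cells and 304 rpm at 6 h, and T markers 3316 and 5068 rpm. At day 2 (16 against the same 9) 4 of 8 were higher against 27.1% of 4318 genes, led by Zfp36 at 3.35, and against 6 h 6 of 8 were higher, where 25.8% of 4989 were. The other 3 above fresh cells were Egr1 (1.19), Ier2 (1.29) and Klf6 (1.52), and all 3 were below 0 as differences of the mean log2(rpm + 1), at -0.49, -0.66 and -1.05. Egr1 also fell to 0.35 and Klf6 to 0.92 without 1 cell. Against 6 h Egr1 (0.51), Ier2 (0.79) and Nr4a1 (0.83) fell under 2-fold without 1 cell. B markers in these T gate cells had a median of 0 rpm fresh and 893 rpm at day 2. NK and innate lymphoid markers had a median of 0 rpm and a highest cell of 1520 rpm at day 2. The part of the markers at either time was not tested. At day 3 in pool IM834, 6 of 8 were at least 2-fold higher among 7 T gate cells and Nr4a1 (-1.21) was lower, against 36.5% and 17.2% of 3874 genes. Without 1 cell Nr4a1 reached -0.69. There 1 cell held 95.1% of the Egr1 and 91.8% of the Btg2 counts. Without any 1 cell the median of 2.74 ran from 0.67 to 3.07, and the Btg2 ratio of 3.11 from -0.059 to 3.44. Egr1 (4.51) and Dusp1 (2.37) fell to 0.59 and 0.75 without 1 cell. Against the 7 T gate cells of day 1, 2 of 8 were 2-fold lower (Nr4a1 and Klf6) and 2 higher, where 26.9% and 23.9% of 2364 genes were, and both higher ones (Zfp36 and Gadd45b) fell under 2-fold without 1 cell.

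The wider pathway was followed in 4 lists. Over all cells 20.1% of all genes were at least 2-fold higher and 21% lower at day 1, and 21.5% and 15.1% at 6 h. Of the AP-1 genes, partners of these factors in the early response (Fos, Fosb, Fosl2, Jun, Junb, Jund and Atf3), 5 of 7 were at least 2-fold higher at day 1 with a median of 3.02, from Junb (0.62) to Fosb (3.62). At day 3 against day 1 all 7 were below 0 with a median of -0.97, from Jun (-0.01) to Fosl2 (-3.06). At 6 h none of the 7 was 2-fold higher and Fosl2 was lower (-1.13), and the highest was Fos (0.59). Of 22 paralogues and further early genes, 21 gave a day 1 ratio, 12 were at least 2-fold higher and 2 lower, with a median of 1.16, from Gadd45g (6.00), the growth arrest paralogue of Gadd45b, to Dusp4 (-1.89), a nuclear MAP kinase phosphatase. Between the fresh groups Gadd45g differed by 4.46 and Dusp4 by -2.03, and of the AP-1 genes Fosb differed by 1.85 and Junb by 0.16. At 6 h 3 of 21 were higher and 4 lower, near the shares of all genes, from Dusp4 (2.42) to Nr4a2 (-2.62), a paralogue of Nr4a1. Dusp4 was thus at opposite ends of the list at the different times.

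Of 10 upstream kinases and factors that act on these promoters, 1 was at least 2-fold higher at day 1 (Mapk3, 3.12, beside 2.74 between the fresh groups, the kinase ERK1) and 3 lower, down to Mapk8 (-3.11, the kinase JNK1), with a median of -0.06. These counts are near the shares of all genes. Of 9 AU-rich inflammatory mRNAs, the class of message that Zfp36 destabilises, 6 gave a day 1 ratio, 5 were higher and 1 lower, from Il1b (2.53) to Cxcl1 (-1.37), and Zfp36 itself was 2.08 higher. Between the fresh groups Il1b differed by more, 3.16. At 6 h 8 of them gave a ratio and all were below 0 with a median of -1.19. Of these 5 were at least 2-fold lower, down to Il10 (-3.06), where 15.1% of all genes were. Zfp36 was 0.79 higher by its sum, but its mean log2(rpm + 1) went from 8.58 in fresh cells to 8.16. Cell types differed between these groups, and a link between Zfp36 and these mRNAs was not tested. The lists had other values within gates. In the macrophage gate 6 of 6 AU-rich mRNAs were below 0 at day 1 with a median of -0.83, none 2-fold higher and 3 lower, where 16.3% and 32.1% of all genes were and their median was -0.36. At 6 h 5 of 5 were below 0 there, 3 of them at least 2-fold lower where 17.4% of all genes were, and Zfp36 was also lower. In the neutrophil gate 6 of 6 were above 0 at 6 h with 2 past 2-fold, where 25.6% of all genes were. AP-1 genes at day 1 were at least 2-fold higher for 4 of 6 in the T gate, 4 of 5 in the B gate and 2 of 6 in the macrophage gate, where 37%, 25.2% and 16.3% of all genes were. Paralogues were higher for 5 of 15, 11 of 18 and 2 of 13, and upstream genes for 3 of 3, 1 of 6 and 0 of 6. In the comparison of the fresh groups 3 of 6 of these mRNAs, 4 of 7 AP-1 genes, 7 of 22 paralogues and 2 of 9 upstream genes were at least 2-fold higher in pool IM793, where 19.1% of all genes were. Outside the set, Gadd45g (1.01 and 6.00) and Klf2 (1.58 and 1.63), a quiescence factor of lymphocytes, were past 2-fold higher at both 6 h and day 1, and the chemokine gene Cxcl1 (-2.67 and -1.37) was lower at both. Klf2 and Cxcl1 differed by -0.89 and 0.98 between the fresh groups. Dusp1 was the member past 2-fold at both, with the limit given above at 6 h. Cells were left out in turn for the members only, so the 6 h value of Gadd45g, close to 2-fold, has no such check. The 6 h and day 1 ratios share no cells.

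Across cells the members varied together to a moderate degree. Pearson's r of log2(rpm + 1) over the 502 cells ran from 0.097 (Gadd45b with Klf6) to 0.490 (Egr1 with Zfp36) over the 28 pairs, with a median of 0.378. After the mean of each group and gate was subtracted the median was 0.316. The mean of the 8 members had an r of 0.134 with the log2 total count and 0.308 with the number of genes read. Among 6533 genes read in at least 10% of cells, Fos (0.698), Junb (0.650), Fosb (0.568) and Nfkbia (0.529) were among the 5 most like that mean. With the group and gate means subtracted Junb (0.669) and Fos (0.649) led, ahead of Ppp1r15a (0.525). Cells share their library pool, depth and type, and the values describe likeness alone.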

How the data were processed

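Single Cd45+ cells of fresh or cold-preserved kidneys were profiled. Per the study's methods, the authors trimmed reads to 75 bases, removed duplicates, aligned the rest to GRCm38 with STAR, and assigned them to genes with HTSeq in its intersection-strict mode without regard to strand (versions not given in the sources used here). Deposited values are raw counts, 1 column per cell. The 96 ERCC rows (0.000185% of counts) and 1 vector row (0.139%) were left out, and the 18S gene (6.60%) was kept. Counts were turned into rpm per cell (log2 values use a pseudocount of 1) and CPM of sums.

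Groups are timepoint by pool. Log2 ratios of CPM were taken for genes whose sums both reached 50 counts, within gates for at least 5 cells in each group, and called at 2-fold. With 1 sample per group no test was made. A ratio script was checked on simulated counts. Mixed cells (in more than 1 gate) were left out of gates, and doublets were not called. Members and lists were chosen with earlier results of these data known. Named genes are the members, the highest and lowest list gene of a comparison, list genes past 2-fold one way at 6 h and day 1, gate markers, and the 5 genes most correlated with the members' mean, of which 1 is not reported here. Ppp1r15a was named after its value was seen. Alternatives were TMM (edgeR 4.0.16), size factors (DESeq2 1.42.0), totals without 18S, mean rpm, mean log2 differences, thinning, all fresh cells, no minimum, other gate minimums and leaving out each cell. Fresh cells of both pools, cells with at least 1500 genes and log2 differences within gates were added after the data were seen. A value moved if it changed by more than 0.5. Python 3.11.15 with numpy 2.4.6, pandas 2.3.3 and scipy 1.17.1, and R 4.3.3, were used.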

Additional observations from a re-analysis of the deposited data

Results flagged for a closer look

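Several members were at least 2-fold higher than the fresh cells of their pool in 1 gate and at least 2-fold lower in another at the same time. Each gate of a group is 1 sample, so these differences between gates were not tested, and all values are log2 ratios of CPM.

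At 6 h in pool IM793, Dusp1 was 2.19 in the neutrophil gate and 1.52 in the monocyte gate but -1.34 in the macrophage gate. Zfp36 was 2.64 in the neutrophil gate and 1.12 in the T gate but -1.02 in the macrophage gate. Gadd45b was 1.43 in the neutrophil gate and -5.14 in the T gate. At day 2 in the same pool, Ier2 was 1.29 in the T gate and 1.26 in the monocyte gate but -2.24 in the macrophage gate, and Klf6 was 1.52 in the T gate and -1.02 in the macrophage gate.

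At day 1 in pool IM834, Dusp1 was 3.21 in the T gate and -1.37 in the macrophage gate. Nr4a1 was 2.91 in the T gate and 2.08 in the B gate but -2.94 in the macrophage gate. Zfp36 was 2.98 in the T gate and 2.73 in the B gate but -1.19 in the macrophage gate. At day 3 the macrophage gate was again the lower one, with -1.06 for Btg2, -2.01 for Dusp1, -1.92 for Ier2 and -1.56 for Zfp36. The T gate had 3.11 for Btg2, 2.37 for Dusp1, 1.90 for Ier2 and 4.00 for Zfp36, and the B gate 1.06 for Btg2, 1.73 for Ier2 and 2.13 for Zfp36. The macrophage gate of pool IM834 had 8 fresh cells, and the T gate 7 preserved cells at each time.

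Many of these values fell under 2-fold without 1 cell. At 6 h these were Dusp1 (-0.90) and Zfp36 (-0.67) in the macrophage gate, Zfp36 (0.82) in the T gate and Gadd45b (0.64) in the neutrophil gate. At day 1 they were Nr4a1 (-0.71) and Zfp36 (-0.92) in the macrophage gate. At day 2 they were Ier2 (0.39) in the monocyte gate and Klf6 in the T gate (0.92) and the macrophage gate (-0.72). At day 3 they were Btg2 in the T gate (-0.059), the B gate (0.70) and the macrophage gate (-0.43), Dusp1 (0.75) in the T gate and Ier2 (0.94) in the B gate. The T gate values of Ier2 and Klf6 at day 2 turned direction, to -0.66 and -1.05, as differences of the mean log2(rpm + 1).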

How the results depend on the processing

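No paired analysis was possible because each timepoint in a pool is 1 sample and the numbers in the labels mark cells, not animals. Of the recalculated medians of the 8 genes and counts of genes 2-fold apart, 60 left the tolerance (0.5 on the log2 scale, 1.5 times for counts) and no median past 2-fold changed sign, but medians under 2-fold did in 15.5% of recalculations. Of 1870 other recalculations (ratios of single genes, shares of cells and correlations) 1438 stayed, 423 moved and 9 were ratios past 2-fold that reversed, of 859. Ratios of single genes under 2-fold changed sign in 13.4% of 844, of which 46 came from leaving out 1 cell and 46 from the difference of mean log2(rpm + 1), among them Nr4a1 in the B gate at day 3 (0.93 to -1.53), Egr1 in the monocyte gate at 6 h (0.76 to -0.95), Egr1 (0.94 to -2.98) and Btg2 (0.31 to -2.86) in the T gate at day 3 against day 1, and Ier2 over all cells at day 2 (0.76 to -1.33). The causes were not tested. TMM, size factors and totals without 18S are among those tried.

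The difference of mean log2(rpm + 1), which weighs cells without a read more, moved most medians. Over all cells it gave -1.23 at 6 h (as reported 0.01), -1.35 at day 2 (0.48) and -0.28 for day 2 against 6 h (0.32), 2.68 at day 1 (1.88), 0.18 at day 3 (0.70), -2.60 for day 3 against day 1, -2.70 for day 4 against day 3 and 2.83 between the fresh groups. In the T gate it gave -1.50 at 6 h, -0.78 at day 2, 2.24 at day 3, -1.23 for day 3 against day 1 and 2.87 between fresh groups. Egr1 (-0.49), Ier2 (-0.66) and Klf6 (-1.05) reversed there at day 2. The B gate gave 1.20 for day 2 against 6 h and 2.77 at day 1. The macrophage gate gave -5.18 at 6 h, -4.24 at day 2, 1.36 for day 2 against 6 h, -1.25 at day 1, -2.62 at day 3, -1.20 for day 3 against day 1, -3.37 for day 4 against day 3, -6.58 for day 4 against fresh and 2.29 between fresh groups (as reported -0.22). The monocyte gate gave 0.089 at day 2, -1.08 for day 2 against 6 h and -1.93 for day 3 against day 1.

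With fresh cells of both pools the medians were 1.09 (day 1) and 0.16 (day 3) over all cells, 0.64 (6 h), 1.94 (day 1) and 2.17 (day 3) for T gate cells, and -1.78 at 6 h in the macrophage gate, where Gadd45b at day 1 reversed to -0.020. In cells with at least 1500 genes the T gate median of day 2 against 6 h was 1.77. Thinning gave -1.04 for day 4 against day 3. With no minimum and a prior count of 1, the genes 2-fold apart went from 3795 to 8806 at 6 h, 4486 to 10186 at day 2, 3792 to 8925 for day 2 against 6 h, 3895 to 9367 at day 1, 4053 to 9569 at day 3, 3915 to 9280 for day 3 against day 1, 2543 to 10776 for day 4 against day 3 and 4528 to 10789 between fresh groups.

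Leaving out each cell in turn, medians ranged from -2.17 to -1.42 for day 4 against day 3. In the T gate they ranged from 0.26 to 1.14 at day 2, 1.85 to 3.23 at day 1, 0.67 to 3.07 at day 3, -2.09 to 1.17 for day 3 against day 1 and 1.32 to 2.15 between fresh groups. The B gate ranged from 0.40 to 1.44 for day 2 against 6 h. The macrophage gate ranged from -2.87 to -0.78 at 6 h, -1.02 to -0.15 at day 2, 0.16 to 1.86 for day 2 against 6 h, -1.55 to -0.43 at day 3, -3.17 to -1.86 for day 4 against day 3 and -3.64 to -2.69 for day 4 against fresh. The monocyte gate ranged from 0.12 to 1.25 at day 2 and -1.08 to 0.26 for day 3 against day 1. Of single genes past 2-fold, those that reversed without 1 cell were Btg2 (-0.059 to 3.44, T gate, day 3 against fresh), Zfp36 (-0.52 to 1.89, T gate, day 3 against day 1), Dusp1 (-0.36, monocyte gate, day 2), Gadd45b (-0.42 to 2.26, monocyte gate, day 3 against day 1) and Ier2 (-2.32 to 0.066, macrophage gate, day 2 against 6 h). Depth sets which ratios exist, since a sum under 50 counts gives none.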

Other observations

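The 2 day 4 cells of pool IM793 have too few neighbours for a comparison. They had 5 and 7 of the 8 members read, more than the median of 1 in the 19 day 4 cells of pool IM834, and Dusp1 stood at 3463 CPM over the 2 cells against 305 CPM there. Nr4a1 was read in neither.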
